A study of Mus musculus with 4 samples.

Results

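The 10 genes described here, Car2, Car6, Atp12a, Slc5a8, Best2, Tmem213, Kcnj16, Ano1, Slc6a14 and Calhm5, were grouped under ion and acid-base transport. Car2 and Car6 encode carbonic anhydrases, and the function of Tmem213 is not known here. The others encode pumps, carriers and channels, most of them for protons, bicarbonate, chloride, potassium, small anions or amino acids. The 10 genes are part of the 32479 in the count tables. They were chosen on measured values, because several led the follicle infundibulum or were high in CerS4-deficient cells of these same mice. Their levels over cell types and between genotypes are therefore given as a description, with no test. Tests were kept for 121 other transport genes, whose lists were also drawn up with earlier results of these data known.

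The cells came from dorsal epidermis of female C57BL/6N mice at postnatal day 19 and were profiled with the BD Rhapsody whole-transcriptome assay. Control mice carried CerS4fl/flK14Cre-, so that both copies of ceramide synthase 4 were floxed and no Cre was present (n = 2 mice). CerS4epi-/- mice carried CerS4fl/flK14Cre+, in which the K14 promoter drives Cre in basal keratinocytes and their descendants (n = 2 mice). All 4 mice thus shared the floxed allele and differed in the Cre. A barcode was taken as a cell from 1200 counts upward if no more than 20% of them were mitochondrial, and the mice gave between 7567 and 9086 cells, with median counts per cell from 3266.5 to 3884. More barcodes were removed for mitochondrial counts in CerS4epi-/- mice (363 and 316) than in control mice (68 and 91). The 2 control libraries shared no kept barcode, where about 87.1 were expected if barcodes had been drawn independently, and the 2 CerS4epi-/- libraries also shared none (77.1 expected). Libraries of different genotype shared 64 to 102. Per the study's methods, cells were labelled with a multiplexing kit and separated by sample tag. How the mice were divided over captures was not given in the sources used here, and genotype and capture pool cannot be told apart in any comparison of genotypes below.

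Epithelia set the pH and ion content of their surface fluid with a small set of proteins. Carbonic anhydrases turn carbon dioxide and water into bicarbonate and protons, ATP-driven pumps and exchangers move these across the membrane, and chloride and potassium channels balance the charge. In skin an acid surface is needed by the enzymes that process barrier lipids, and the infundibulum, the funnel where the hair follicle opens to the surface, builds a cornified barrier of its own.

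Cells were sorted into 11 gates by unique molecular identifier (UMI) counts of marker genes. Follicle keratinocytes were taken as cells with at least 5 counts of Krt79, a keratin of the upper follicle, and divided by at least 5 counts of Cst6, the cystatin M/E of the infundibulum, into Krt79+ Cst6+ and Krt79+ Cst6- cells. Cells with at least 20 counts of Cst6 but fewer than 5 of Krt79, and outside the granular gate, were called Cst6+ Krt79- cells, and cells with at least 2 counts of Krt75, a keratin of the inner bulge and companion layer, Krt75+ cells. The interfollicular epidermis was divided into basal, spinous and granular gates. In the Krt79+ Cst6+ gate all 5 fixed infundibulum markers (Krt79, Cst6, Klk7, Klk10 and Slurp1) were present with at least 3 counts in every mouse, of which Krt79 and Cst6 were set by the gate. Klk7 was higher in granular cells (5763 to 6340 CPM) than in this gate (2465 to 5278 CPM), so these markers alone do not separate infundibulum from granular cells. Its size was 526 and 379 cells in controls against 1088 and 1024 in CerS4epi-/- mice. Levels are given as CPM, the counts of a gene scaled to the sum of all counts of one gate in one mouse, and values are given in the order control replicate 1, control replicate 2, CerS4epi-/- replicate 1, CerS4epi-/- replicate 2.

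The Krt79+ Cst6+ gate did not hold the same mixture of cells in both genotypes. Cells with at least 2 counts of Klk10, a kallikrein protease, made up 10.6% of it (95% Wilson interval 8.29 to 13.6) and 9.50% (6.94 to 12.9) in the control mice, against 22.2% (19.9 to 24.8) and 29.2% (26.5 to 32.1) in the CerS4epi-/- mice. Klk10 was low in granular cells (7.93 to 43.5 CPM), so it is not read here as a mark of late differentiation. Intervals here cover counting error only. The gate was therefore also divided at that count into Klk10+ cells (56 and 36 in controls, 242 and 299 in CerS4epi-/- mice) and Klk10- cells, a division chosen after the values were seen. The genes used for the division were not matched between genotypes within its parts. In Klk10+ cells Klk10 stood at 4050 and 2889 CPM in controls against 7200 and 7301 in CerS4epi-/- mice. Cst6 stood there at 33576 and 31702 against 44227 and 44140, and in Klk10- cells at 8506 and 8295 against 13470 and 14482. Keratins also differed between genotypes within the Klk10+ cells. Krt14 stood at 480 and 680 CPM in controls against 2866 and 3187, Krt6a at 364 and 313 against 3196 and 4260, and Krt10 at 7508 and 11279 against 1652 and 2663. The Klk10- cells differed too, with Krt14 at 521 and 483 CPM in controls against 2032 and 2541. Their Krt6a stood at 29.9 and 15.0 against 925 and 1953, and Krt10 at 7776 and 9929 against 5200 and 4545. In Cst6+ Krt79- cells Krt14 stood at 830 and 150 against 5698 and 3776. Krt10 stood there at 11383 and 23611 against 6463 and 3762, while Krt6a overlapped. The part of this mixture in the genotype differences of the members was not tested beyond the division by Klk10.

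Cers4 itself was counted mostly in the sebaceous gland-like cells (7 to 38 cells per mouse), at 2245, 1338, 248 and 385 CPM, lower in both CerS4epi-/- mice. This gate was not alike in the 2 genotypes, with Cst6 at 103, 157, 4449 and 3638 CPM and Klk10 at 0, 0, 1489 and 773 CPM. The part of this in the Cers4 level was not tested. In Krt79+ Cst6+ cells it was near the limit of detection, at 1.94, 4.13, 0.852 and 2.23 CPM, so the loss could not be read from those cells. Whether the counted part of the transcript lies inside the deleted part was not given in the sources used here.

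The name of follicle keratinocytes held for some of the genes only. Of all counts in the kept cells, 7.12% in controls and 18.99% in CerS4epi-/- mice fell in the 5 follicle gates (Krt79+ Cst6+, Krt79+ Cst6-, Cst6+ Krt79-, Krt75+ and Lhx2+). Of the counts of Car2, 90.9% and 94.9% fell there, and of those of Calhm5, 93.5% and 95.7%. Atp12a followed with 63.2% and 87.1%, Best2 with 60.1% and 62.9%, and Slc5a8 with 54.9% and 47.9%. Car6 changed from 10.6% in controls to 63.1% in CerS4epi-/- mice. Slc6a14 (2.72% and 6.15%) and Kcnj16 (2.27% and 4.95%) lay mainly in the interfollicular epidermis. Ano1 had 10.7% and 23.3% in the follicle gates, somewhat above the shares of all counts. In the basal, spinous and granular gates it had 82.55% and 69.29%, close to the 84.13% and 69.76% of all counts.

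**Figure D1:**
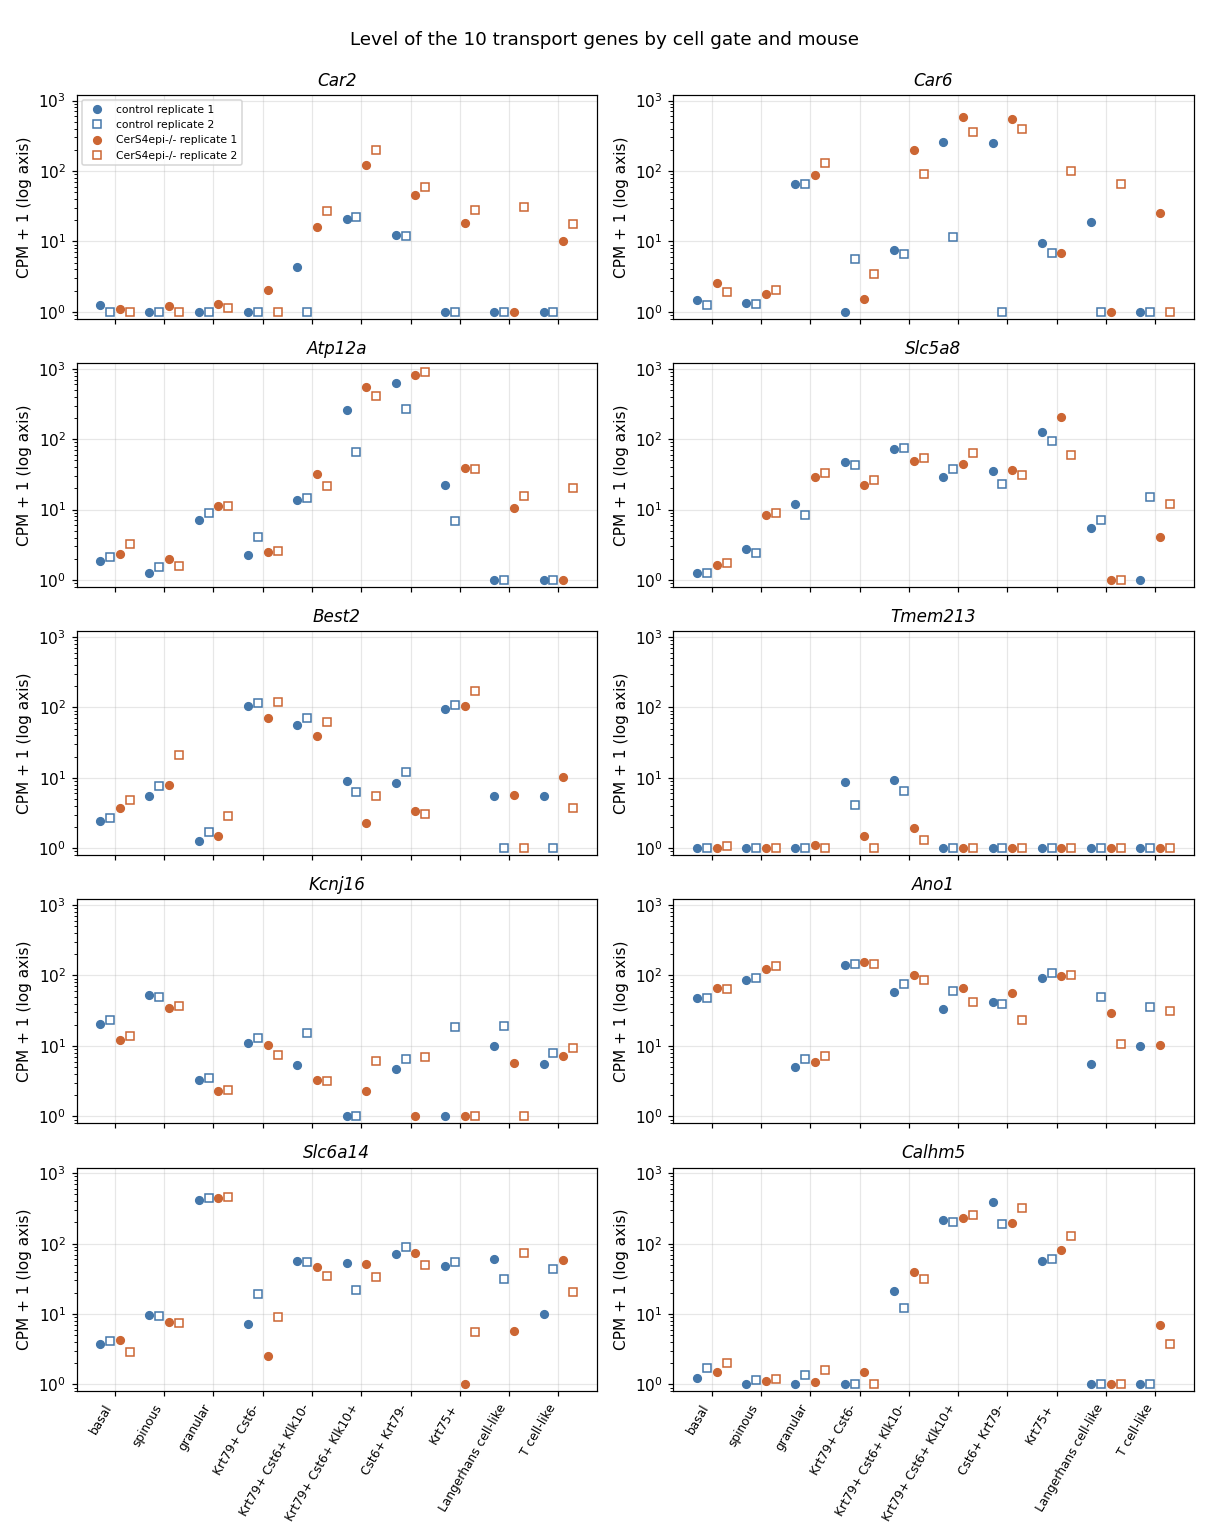
Level of each of the 10 genes (CPM + 1, log axis) in 10 cell gates, with 1 point per mouse, blue for control and orange for CerS4epi-/-, filled for replicate 1 and open for replicate 2. Car2, Atp12a and Calhm5 peak in Klk10+ or Cst6+ Krt79- cells, Best2 in Krt79+ Cst6- and Krt75+ cells, Slc6a14 in granular cells (421 to 456 CPM) and Kcnj16 in spinous cells (33.2 to 51.8 CPM).

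The promoter sequences of 3 members with different places in the skin are printed here, from RefSeq on GRCm38.p6, each running from 250 bases before to 50 bases after the annotated start, 5′ to 3′ on the strand of the gene. Calhm5 stands for the Cst6-positive cells (chr10:34096470-34096769, minus strand), Car6 for a gene counted in both granular and Cst6-positive cells (chr4:150201086-150201385, minus strand), and Slc6a14 for granular cells (chrX:21714650-21714949, plus strand). Capitals mark matches, on either strand, to 5 motifs, the AP-1 motif TGANTCA, the TATA box TATAAA, the CCAAT box CCAAT, the E-box CACGTG and the GC box GGGCGG.
Calhm5: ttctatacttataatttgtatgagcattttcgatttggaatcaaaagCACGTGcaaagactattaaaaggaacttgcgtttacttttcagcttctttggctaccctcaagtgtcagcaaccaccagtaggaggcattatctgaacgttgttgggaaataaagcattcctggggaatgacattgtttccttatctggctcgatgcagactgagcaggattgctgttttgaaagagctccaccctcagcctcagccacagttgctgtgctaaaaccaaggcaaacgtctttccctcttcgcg
Car6: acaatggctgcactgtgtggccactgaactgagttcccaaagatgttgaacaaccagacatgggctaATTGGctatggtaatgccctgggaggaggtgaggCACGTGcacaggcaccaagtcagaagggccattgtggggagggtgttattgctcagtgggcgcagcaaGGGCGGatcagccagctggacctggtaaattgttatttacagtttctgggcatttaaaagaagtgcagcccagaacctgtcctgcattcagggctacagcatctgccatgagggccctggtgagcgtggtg
Slc6a14: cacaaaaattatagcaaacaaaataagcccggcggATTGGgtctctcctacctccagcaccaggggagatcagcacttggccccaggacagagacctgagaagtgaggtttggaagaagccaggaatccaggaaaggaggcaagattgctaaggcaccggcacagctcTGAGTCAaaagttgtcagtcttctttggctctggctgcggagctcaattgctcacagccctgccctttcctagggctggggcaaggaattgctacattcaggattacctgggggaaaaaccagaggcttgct
An E-box was found at -203 in Calhm5 and at -149 in Car6, counted from the start, and 7.15% of the 32851 promoters in the table hold one. The AP-1 motif was found at -82 in Slc6a14 and in none of the other entries of the 7 members that the table lists, against 7.81% of all promoters. The Car6 window also held a CCAAT box at -183 (37.4% of all promoters) and a GC box at -81 (35.7%). A match is a string of letters and was not tested as a binding site.

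Car2 encodes the fast cytosolic carbonic anhydrase II (GRCm39 chr3:14951317-14967568, plus strand). Krt79+ Cst6+ cells held it at 5.35, 2.75, 43.1 and 87.1 CPM, from 15 counts in the control mice and 682 in the CerS4epi-/- mice. Both CerS4epi-/- mice lay above both controls, with a log2 difference of 3.97 ± 0.49 (SE of edgeR's fit, n = 2 against 2). The counts were concentrated in the Klk10+ cells, where the levels were 19.99, 21.2, 121 and 197 CPM and the log2 difference was 3.10 ± 0.44. In the Klk10- cells the levels were 3.32, 0, 15.3 and 25.6 CPM. Cst6+ Krt79- cells gave 11.3, 11.1, 45.3 and 58.3 CPM. The CerS4epi-/- mice lay above the controls in each of these sets of cells, though the Klk10- levels of the controls rest on 6 and 0 counts.

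In the interfollicular epidermis Car2 was close to absent, with 4 counts in all granular cells and 3 in all spinous cells of the CerS4epi-/- mice and none in those of the controls. T cell-like cells, which should lack it, gave 0 and 0 CPM in controls and 9.16 and 16.6 CPM in CerS4epi-/- mice, from 9 counts. The T cell-like gate itself held Cst6 at 143, 225, 751 and 1988 CPM, and doublets were not removed. Their part in its Car2 level was not tested. Barcodes with fewer than 100 counts, used as a measure of free RNA, held Car2 at 0, 0.426, 7.10 and 5.97 CPM. Such levels give the make-up of free RNA and not its amount in a cell. In CerS4epi-/- mice the Klk10- level lay somewhat above those of the T cell-like cells and low-count barcodes. In CerS4epi-/- replicate 2, however, it lay below that of Langerhans cell-like cells, at 29.3 CPM from 6 counts. Langerhans cell-like cells of the other mice held no Car2. The Klk10- level of CerS4epi-/- mice lay far above that of granular cells (0.306 and 0.149 CPM). The Klk10+ level lay far above all of these. Erythroid cells also use carbonic anhydrase II. The summed level of 5 erythroid genes in the Klk10+ cells was 16.0, 85.0, 9.07 and 19.3 CPM. Alas2, the heme synthesis enzyme of red cell precursors, was the other way round, at 0, 0, 3.89 and 2.84 CPM, from 11 counts. The part of such RNA in the Car2 level was not tested.

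Car6 encodes the secreted carbonic anhydrase VI known from saliva (chr4:150271472-150285789, minus strand). It had 2 places. In granular cells its levels were 63.4, 64.4, 86.1 and 130 CPM, higher in both CerS4epi-/- mice, with a log2 difference of 0.84 ± 0.15. Krt79+ Cst6+ cells had 37.4, 6.19, 299 and 187 CPM. The 2 control mice differed widely there. Within Klk10+ cells the levels were 260, 10.6, 588 and 361 CPM, and in Cst6+ Krt79- cells 252, 0, 553 and 390 CPM. In these 2 sets of cells nearly all control counts came from control replicate 1 (65 against 2 counts in Klk10+ cells). In Klk10- cells, where the controls lay close together at 6.64 and 5.53 CPM, the CerS4epi-/- mice stood at 196 and 90.1 CPM. Low-count barcodes held Car6 at 10.1, 9.79, 36.7 and 40.1 CPM, above the Klk10- levels of the controls and below those of the CerS4epi-/- mice. Leaving out control replicate 1 moved the log2 difference in Klk10+ cells from 1.83 to 5.67, and leaving out control replicate 2 moved it to 1.00.

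Atp12a encodes the catalytic subunit of the non-gastric proton-potassium pump, which secretes protons in exchange for potassium (chr14:56602262-56626010, plus strand). Its highest level was in Cst6+ Krt79- cells, at 616, 271, 810 and 888 CPM. In Krt79+ Cst6+ Klk10+ cells it reached 256, 63.7, 558 and 402 CPM, while the Klk10- cells beside them held 12.7, 13.4, 31.4 and 20.6 CPM. Over the whole Krt79+ Cst6+ gate it stood at 42.3, 19.9, 170 and 157 CPM, with a log2 difference of 2.39 ± 0.21. Both CerS4epi-/- mice lay above both controls in each of these 4 sets of cells. The log2 difference was 1.65 ± 0.36 in Klk10+ cells and 1.04 ± 0.28 in Klk10- cells, both smaller than in the undivided gate. Low-count barcodes held Atp12a at 3.78, 6.38, 37.3 and 35.0 CPM, above the Klk10- levels of the CerS4epi-/- mice. That level is no floor for a cell, since spinous cells of the CerS4epi-/- mice held only 0.994 and 0.563 CPM. The part of free RNA in the Klk10- levels was not tested. Without control replicate 1 the Klk10+ value was 3.12, and without control replicate 2 it was 1.04.

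Calhm5 encodes a member of the CALHM family of large-pore channels, and the function of this member in skin is not known here (chr10:33963811-33972550, minus strand, overlapping Trappc3l on the other strand). In Krt79+ Cst6+ cells it stood at 43.8, 35.8, 89.8 and 111 CPM, and both CerS4epi-/- mice exceeded both controls, with a log2 difference of 1.38 ± 0.16. In the Klk10+ cells the 4 mice lay close together, at 216, 202, 233 and 255 CPM, with a log2 difference of 0.37 ± 0.17. Cst6+ Krt79- cells gave 391, 188, 195 and 324 CPM, overlapping between genotypes. The Klk10- cells gave 19.9, 11.1, 38.6 and 30.4 CPM, higher in both CerS4epi-/- mice, with a log2 difference of 1.12 ± 0.26. Low-count barcodes held Calhm5 at 3.78, 3.83, 20.1 and 15.3 CPM. The gate was also divided by the amount of Cst6. Cells with 20 to 79 counts of Cst6 gave 23.8, 11.8, 17.2 and 13.3 CPM, overlapping between genotypes. In Krt79+ Cst6+ cells with at least 80 counts of Cst6 the Calhm5 level was 182, 174, 183 and 206 CPM. In the same cells Car2 stood at 31.3, 15.8, 88.4 and 161 CPM and Atp12a at 202, 63.1, 341 and 286 CPM. This band was not matched between genotypes, with Cst6 at 34164, 34448, 39704 and 42099 CPM. Klk10 stood there at 2670, 1946, 4027 and 4932 CPM.

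**Figure D2:**
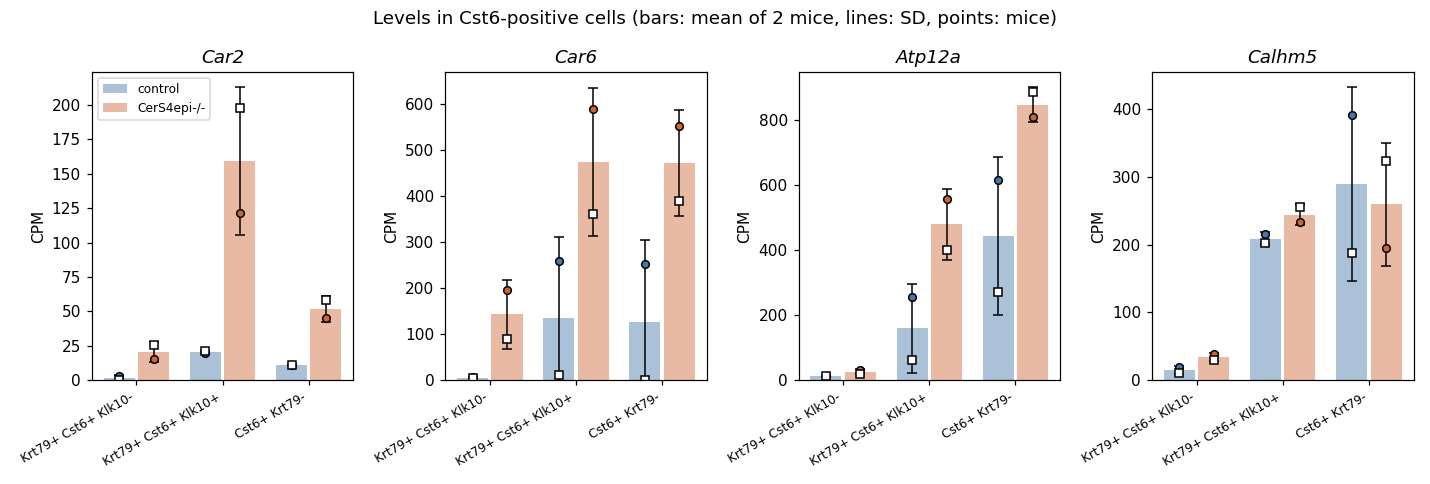
Levels (CPM, linear axes from 0) of Car2, Car6, Atp12a and Calhm5 in the Klk10- and Klk10+ parts of the Krt79+ Cst6+ gate and in Cst6+ Krt79- cells. Bars are means of 2 mice, lines the SD, circles replicate 1 and squares replicate 2. Calhm5 in Klk10+ cells lies at 202 to 255 CPM in all 4 mice, while Car2 lies at 19.99 and 21.2 CPM in controls and at 121 and 197 CPM in CerS4epi-/- mice.

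The share of Klk10+ cells with at least 1 UMI showed the same contrast between genes. Calhm5 was found in 51.8% and 75.0% of the cells of the controls and in 55.4% and 60.5% of those of the CerS4epi-/- mice. When every cell was thinned to 1200 UMIs, these became 25.0%, 27.8%, 25.6% and 27.4%. Atp12a was found in 14.3%, 8.33%, 44.6% and 42.1% of the cells, or 5.36%, 5.56%, 25.6% and 24.7% after thinning. Car2 was found in 5.36%, 8.33%, 24.0% and 30.8%, or 0%, 2.78%, 9.92% and 15.7% after thinning, and Car6 in 10.7%, 5.56%, 26.9% and 16.1%, or 3.57%, 2.78%, 17.8% and 11.04%. For comparison, the T cell-like cells of the 4 mice held a Car2 UMI in 0%, 0%, 1.44% and 0.709% of cells at median depths of 1541 to 1906 counts, against 3948 to 5260 counts in the Klk10+ cells. The control shares rest on 56 and 36 cells.

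**Figure D3:**
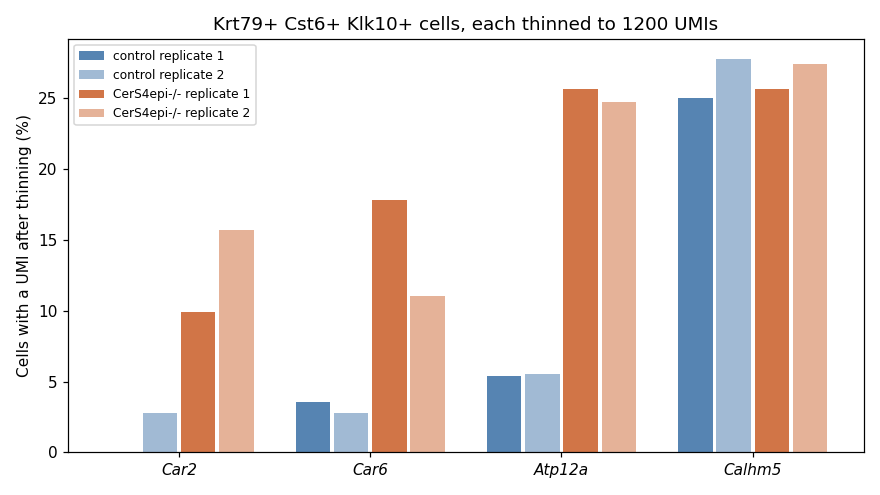
Percentage of Krt79+ Cst6+ Klk10+ cells with at least 1 UMI of each gene after every cell was thinned to 1200 UMIs, 1 bar per mouse, the darker bar of each colour for replicate 1. Calhm5 bars stand at 25.0% to 27.8% in all mice, and Atp12a bars at 5.36% and 5.56% in controls against 25.6% and 24.7% in CerS4epi-/- mice.

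Co-detection was counted for pairs of members. Among the thinned Klk10+ cells of the CerS4epi-/- mice, 33 of the 71 cells with Car2 (46.5%) also had Atp12a, against 103 of the 470 cells without Car2 (21.9%). Of the 76 cells with Car6, 34 had Atp12a (44.7%), against 102 of 465 without Car6 (21.9%). Car6 was found in 5 of the 71 cells with Car2 (7.04%) and in 71 of the 470 without (15.1%), too few cells to read a direction. Calhm5 was found in 59 of the 136 cells with Atp12a (43.4%) and in 85 of the 405 without (21.0%). Cells of one mouse are not replicates, a cell without a UMI after thinning may still express the gene, and these shares are a description. Over both mice together, depth differed little between cells with and without Car2 (medians of 4994 and 5237 counts). Within each mouse it differed, in opposite directions. The medians were 3873 and 5458 in CerS4epi-/- replicate 1, and 5659 and 4938 in CerS4epi-/- replicate 2. Cells with Car6 were deeper than those without (7188 and 4940).

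Slc5a8 encodes a sodium-coupled carrier of lactate, butyrate and other monocarboxylates (chr10:88721766-88765377, plus strand). It was counted in every follicle gate with 20 or more cells per mouse. Krt75+ cells had the highest mean level, at 124, 94.6, 204 and 58.8 CPM, with wide overlap between genotypes, but in CerS4epi-/- replicate 2 the Klk10+ cells (62.4 CPM) lay above them. Their Krt79 level was 51.3, 76.9, 692 and 800 CPM, so these cells too were not alike in the 2 genotypes. In Krt79+ Cst6- cells Slc5a8 stood at 45.6, 42.5, 21.0 and 25.0 CPM, lower in both CerS4epi-/- mice by a log2 difference of -0.96 ± 0.26. In Klk10- cells it stood at 70.3, 75.1, 47.6 and 52.8 CPM, also lower in both. It was higher in both CerS4epi-/- mice in the Klk10+ follicle cells, at 28.0, 37.2, 44.1 and 62.4 CPM (log2 difference 0.89 ± 0.39), and in the interfollicular epidermis. Granular cells had 10.9, 7.27, 28.3 and 32.5 CPM (log2 difference 1.85 ± 0.17) and spinous cells 1.71, 1.44, 7.49 and 7.98 CPM (2.28 ± 0.21). Low-count barcodes held Slc5a8 at 16.4, 8.09, 21.3 and 14.5 CPM, above every spinous level and above the granular levels of both controls. Basal cells held only 0.24 to 0.744 CPM, so the free RNA level is no floor for a cell.

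Best2 encodes bestrophin 2, a calcium-activated chloride channel that also passes bicarbonate (chr8:85733831-85741160, minus strand). It stood at 103, 114, 69.2 and 118 CPM in Krt79+ Cst6- cells and at 94.0, 106, 105 and 167 CPM in Krt75+ cells. The genotypes overlapped in both. Within the Krt79+ Cst6+ gate it was placed opposite to Atp12a and Calhm5, with 55.3, 69.5, 38.6 and 61.7 CPM in Klk10- cells and 8.00, 5.31, 1.30 and 4.54 CPM in Klk10+ cells, the latter from 13 counts. In the undivided gate its levels of 49.6, 61.2, 28.8 and 41.2 CPM gave a log2 difference of -0.59 ± 0.19, which was -0.30 ± 0.21 in the Klk10- cells. Spinous cells held less, at 4.58, 6.63, 6.89 and 19.8 CPM, where CerS4epi-/- replicate 2 stood apart and carried most of the log2 difference of 1.17 ± 0.42. Without that mouse the difference was 0.30. Low-count barcodes held Best2 at 12.4 to 19.6 CPM, and the spinous level of CerS4epi-/- replicate 2 alone exceeded that of its own mouse.

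**Figure D4:**
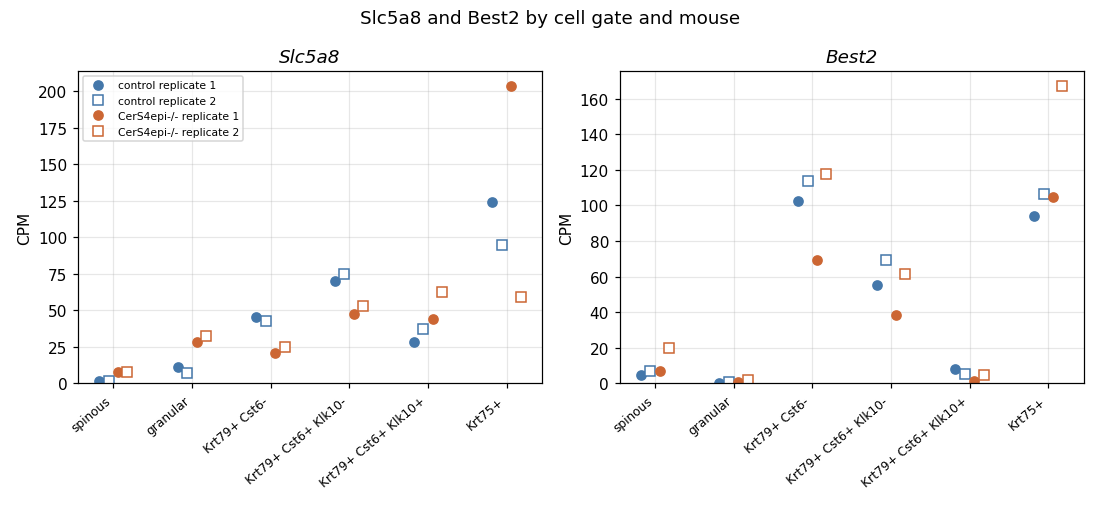
Levels of Slc5a8 and Best2 (CPM, linear axes) in 6 cell gates, 1 point per mouse, blue for control and orange for CerS4epi-/-. Slc5a8 lies higher in CerS4epi-/- mice in spinous, granular and Klk10+ cells and lower in Krt79+ Cst6- and Klk10- cells, and Best2 falls to between 1.30 and 8.00 CPM in Klk10+ cells.

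Ano1 encodes the calcium-activated chloride channel anoctamin 1 (chr7:144142278-144305711, minus strand). It was expressed across the epidermis and not led by the infundibulum. Krt79+ Cst6- cells had 138, 143, 156 and 143 CPM, spinous cells 83.9, 90.2, 121 and 133 CPM, and basal cells 46.2, 46.6, 66.5 and 64.1 CPM. Both CerS4epi-/- mice lay above both controls in spinous cells (log2 difference 0.54 ± 0.08) and in basal cells (0.54 ± 0.09). The genotypes overlapped in Krt79+ Cst6+ cells, at 54.0, 73.6, 90.7 and 70.0 CPM. In the Klk10- part both CerS4epi-/- mice lay above both controls, at 57.0, 75.9, 99.6 and 86.3 CPM (0.53 ± 0.15). Granular cells had the lowest keratinocyte level, from 3.97 to 6.29 CPM. Low-count barcodes held 91.9 to 106 CPM, close to the spinous level.

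Kcnj16 encodes an inwardly rectifying potassium channel subunit that is sensitive to pH (chr11:110858843-110927617, plus strand). It was a gene of the interfollicular epidermis. Spinous cells held 51.8, 48.0, 33.2 and 36.2 CPM, lower in both CerS4epi-/- mice, with a log2 difference of -0.53 ± 0.09. Basal cells held 19.2, 22.7, 11.2 and 12.8 CPM (-0.76 ± 0.15). Low-count barcodes held Kcnj16 at 31.5, 20.9, 11.2 and 9.38 CPM, also lower in both CerS4epi-/- mice and close to the basal levels. Krt79+ Cst6+ cells held 3.89, 12.4, 2.04 and 3.25 CPM, from 54 counts in all. The difference there, -1.45 ± 0.52, became -0.52 when control replicate 2 was left out.

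Slc6a14 encodes a broad carrier of neutral and basic amino acids that is driven by sodium and chloride (chrX:21581135-21608594, plus strand). In granular cells it stood at 421, 439, 449 and 456 CPM, and 90.7% of its 17867 counts lay there. The difference between genotypes in those cells was small, with a log2 value of 0.17 ± 0.07. Levels in Krt79+ Cst6+ cells were 55.9, 49.5, 47.2 and 33.7 CPM and in spinous cells 8.80, 8.36, 6.76 and 6.55 CPM, both lower in CerS4epi-/- mice (-0.32 ± 0.18 and -0.37 ± 0.15). Low-count barcodes held it at 54.2, 68.9, 59.8 and 55.4 CPM, far above the spinous levels. Basal cells held only 1.94 to 3.28 CPM, so the free RNA level is no floor for a cell. The Krt79+ Cst6+ levels lay below the free RNA level too, except in control replicate 1, where they were about equal. Cst6+ Krt79- cells, at 71.4, 88.6, 73.8 and 48.2 CPM, exceeded the free RNA level in every mouse but CerS4epi-/- replicate 2.

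Tmem213 encodes a small membrane protein whose function is not known here (chr6:38086190-38092744, plus strand). It overlaps Atp6v0a4, a proton pump subunit gene on the other strand. Only 38 counts were found in all cells, 30 in control and 8 in CerS4epi-/- mice. In Krt79+ Cst6+ cells it stood at 7.29, 4.82, 0.682 and 0.203 CPM, all of it in Klk10- cells, and in Krt79+ Cst6- cells at 7.61, 3.04, 0.512 and 0 CPM. Both CerS4epi-/- mice lay below both controls in both gates, on 27 and 9 counts. Atp6v0a4, by contrast, stood at 168, 170, 159 and 167 CPM in Krt79+ Cst6+ cells.

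The order of the gates was close for some members and not for others. In controls Car2 fell from Klk10+ cells (20.6 ± 0.884 CPM, SD) to Cst6+ Krt79- cells (11.2 ± 0.142) by more than either SD, but on 9 and 5 counts. Atp12a fell from Cst6+ Krt79- cells (444 ± 244) to Klk10+ cells (160 ± 136), again by more than either SD. For Calhm5 the first gates, Cst6+ Krt79- (289 ± 143) and Klk10+ (209 ± 9.98), did not differ beyond their SD, and both lay above Krt75+ cells (57.4 ± 2.54). For Best2 the first gates, Krt79+ Cst6- (108 ± 7.95) and Krt75+ (100.2 ± 8.80), did not differ beyond their SD.

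Over 40 sums (10 gates in 4 mice, the Klk10 parts taken separately), the level of Atp12a followed that of Calhm5 with Pearson r = 0.876 on log2(CPM + 1), and that of Car2 with r = 0.809. Best2 was nearest to Ano1 among the members (r = 0.655) and unrelated to Atp12a (r = 0.004). The sums share mice, depth and gates, so these values are a description. The genes outside the set most like Car2 were Qsox1, Fhl2 and Cstb (r = 0.889, 0.881 and 0.880), and those most like Atp12a were Tmprss11e, Prss22 and Insig2 (0.913, 0.900 and 0.899). Those most like Calhm5 were Scnn1b, Aplp2 and Sprr4 (0.906, 0.895 and 0.886). For Car6 they included Tpm1 and Sgpl1 (0.803 and 0.80), for Slc5a8 Endod1, Bicd2 and Efna3 (0.890, 0.857 and 0.847), and for Best2 Dpysl3, Papss1 and Vangl2 (0.850, 0.819 and 0.790). For Ano1 they were Nrbp2, Polr1d and Pura (0.923, 0.917 and 0.904), for Slc6a14 Lypd5, Sdr9c7 and Srpk1 (0.929, 0.913 and 0.892), and for Kcnj16 Hlf, Nme2 and Zfp386 (0.798, 0.772 and 0.769). Tmem213 had too few counts for this measure.

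Ionocytes are rare epithelial cells that combine several of these transporters under the factor Foxi1. Their genes were at or near 0 in the cells that carried the members. In Krt79+ Cst6+ cells of the 4 mice together, Foxi1, Ascl3 and Atp6v0d2 had 0 counts, Foxi3 had 1, Atp6v1b1 had 2, Bsnd had 3 and Cftr had 14. No gene of the list reached 3 counts in every mouse in any gate.

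The other transport genes were then tested, to ask whether the machinery around the members differed between follicle and interfollicular cells and between genotypes. Of 121 genes in 9 lists, 69 passed the filter on low counts in the comparison of Krt79+ Cst6+ with spinous cells of the same mice. By the quasi-likelihood test of edgeR, with p-values adjusted over all 11985 genes after Benjamini and Hochberg, 28 of the 69 were higher in the Krt79+ Cst6+ cells (40.6%, against 24.1% of all genes) and 23 were lower (33.3%, against 24.4%). The median log2 fold change was 0.13 over the 69 genes and -0.01 over all genes. A gene could pass the filter through the counts of a single gate, and its direction was then fixed in advance. Among such genes were Scnn1b and Calhm6, hardly counted in spinous cells, and Slc4a9, hardly counted in Krt79+ Cst6+ cells. They were left in the counts of higher and lower genes, and the shares are a description.

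Among the cation pumps, 5 of 10 tested genes were higher and 1 lower in Krt79+ Cst6+ cells. The leading ones were subunits of the vacuolar proton pump. Atp6v1c2 stood at 738, 613, 1065 and 1111 CPM against 62.0, 86.0, 117 and 142 in spinous cells (log2 fold change 3.24 ± 0.13, adjusted p = 2e-06 by edgeR), and Atp6v1b2 (1.93 ± 0.07) and Atp6v0a4 (1.92 ± 0.10) were also higher. The sodium-potassium pump subunit Atp1b1 was higher by 1.31 ± 0.44 over the 4 mice, from 91.9, 55.0, 276 and 319 CPM against 66.3, 75.0, 59.2 and 75.6 in spinous cells, and was lower in control replicate 2. Of 5 tested genes in the carbonic anhydrase list 4 were higher and none lower. The higher ones were Car5a (2.96 ± 0.39), Car12 (1.502 ± 0.20), Car13 (1.14 ± 0.12) and Car11 (0.88 ± 0.29). Enzyme activity was not measured. Of the sodium channel and cotransporter list 4 of 7 were higher. They included Scnn1b and Scnn1g, subunits of the epithelial sodium channel. Scnn1b stood at 4.86, 10.3, 7.67 and 14.2 CPM against at most 0.205 in spinous cells, and Scnn1g was higher by 3.23 ± 0.28. The cotransporters Slc12a7 (-1.27 ± 0.27) and Slc12a2 (-0.65 ± 0.18) were lower.

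Among the proton and bicarbonate exchangers 3 of 10 were higher and 4 lower. Slc26a9, a chloride and bicarbonate carrier (3.46 ± 0.22), Slc4a11, a proton-coupled carrier (2.69 ± 0.16), and Slc9a3, a sodium-proton exchanger (1.82 ± 0.34), rose, and Slc4a9 fell by 3.01 on the log2 scale, from 2.25 to 3.64 CPM in spinous cells to at most 0.511. All 4 tested monocarboxylate carriers passed, with Slc16a1, which carries lactate with a proton, higher by 3.85 ± 0.44, and Slc16a6 (-1.48 ± 0.18), Slc16a10 (-1.44 ± 0.16) and Slc16a14 (-0.89 ± 0.12) lower. Of 12 chloride channels 5 were higher and 4 lower. Clic4 (2.06 ± 0.33), Ano9 (1.86 ± 0.10) and Clcn5 (1.39 ± 0.19) were higher and Clca2 (-1.90 ± 0.14) lower.

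Of 5 potassium channels Kcnk6 (0.83 ± 0.09) was higher, and Kcnj2 (-1.75 ± 0.18), Kcnj15 (-1.52 ± 0.23) and Kcnk2 (-0.47 ± 0.15) were lower. In the amino acid and osmolyte list 2 of 13 were higher and 6 lower. Slc6a15 was higher at 1.46 to 2.84 CPM, and Slc6a19 (-2.33 ± 0.38), Slc7a5 (-1.65 ± 0.25) and the taurine carrier Slc6a6 (-1.54 ± 0.16) were lower. In the CALHM and water channel list 3 of 9 genes passed the filter and all 3 were higher, an outcome that the filter fixed for Calhm6. Calhm6 stood at 11.2, 8.94, 12.4 and 14.8 CPM against at most 0.102 in spinous cells, and the glycerol channels Aqp3 and Aqp9 were higher by 2.46 ± 0.29 and 2.42 ± 0.17.

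Between genotypes, 59 of the 121 genes were tested in Krt79+ Cst6+ cells. Of these 13 were higher in CerS4epi-/- mice (22%, against 8.49% of the 10773 genes tested) and 8 were lower (13.6%, against 7.02%) by edgeR. The median log2 fold change was 0.13 over the 59 genes and 0.00 over all genes. The lists were drawn up with earlier results of these mice known. A gene could also pass the filter through a single genotype, and these shares are a description. The median mitochondrial share of the cells moved with genotype, at 6.44% and 6.09% in controls against 8.84% and 8.5% in CerS4epi-/- mice, and its part in these changes was not tested beyond the limit of 10% mitochondrial counts, under which 16 genes were called. Of 10 tested cation pumps 5 were higher, none was lower and 5 did not pass. Atp1b1, a subunit of the sodium-potassium pump, rose from 91.9 and 55.0 CPM to 276 and 319 CPM (2.05 ± 0.18, adjusted p = 2.56e-05 by edgeR). Atp6v1a (0.88 ± 0.10) and Atp6v1c2 (0.75 ± 0.12) of the vacuolar pump were also higher. Of the 10 members, all of which passed the low-count filter in this gate, none is counted here, since they were chosen on this contrast.

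The genes of the carbonic anhydrase list split. Car12, a membrane-bound enzyme facing the outside, rose from 20.4 and 9.63 CPM to 83.3 and 75.9 CPM (2.40 ± 0.22, adjusted p = 3.31e-05 by edgeR), while Car13 (-0.65 ± 0.11) and Car11 (-1.16 ± 0.33) were lower. Among the chloride channels Clic4 rose from 51.0 and 31.0 to 160 and 218 CPM (2.23 ± 0.21), and Ano10 (-0.97 ± 0.27), Ano7 (-0.97 ± 0.25) and Clca2 (-0.46 ± 0.13) were lower. Of the proton and bicarbonate list Slc26a9 (1.34 ± 0.18) and Slc4a7 (2.20 ± 0.62, at most 6.497 CPM) were higher. Slc4a7 could not be tested in either Klk10 part. Slc12a2 of the sodium and cotransport list was also higher (1.15 ± 0.11). The water and glycerol channels Aqp9 (1.14 ± 0.13) and Aqp3 (0.86 ± 0.15) rose, Slc16a1 was lower (-1.07 ± 0.23), and none of the 4 tested potassium channels passed. Of the amino acid carriers Slc6a6 was higher (0.91 ± 0.23) and Slc1a3 (-2.38 ± 0.49) and the glycine carrier Slc6a9 (-0.91 ± 0.12) were lower.

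**Figure D5:**
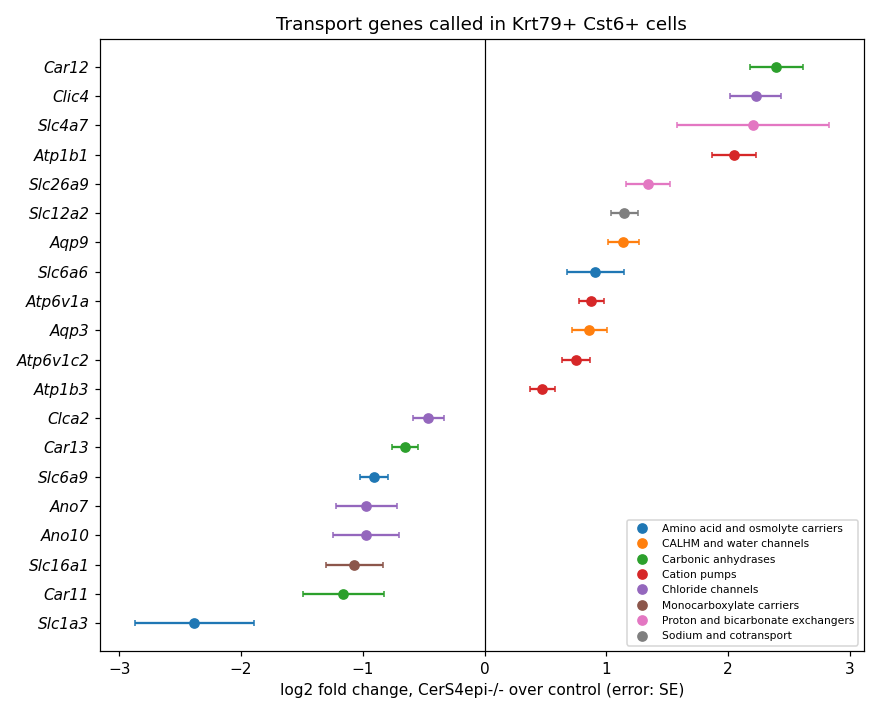
20 of the transport genes outside the chosen set with an edgeR adjusted p under 0.05 between CerS4epi-/- and control mice in Krt79+ Cst6+ cells, by log2 fold change with its SE and coloured by list. The 12 genes to the right of 0 were higher in CerS4epi-/- mice, led by Car12 (2.40) and Clic4 (2.23), and the 8 to the left were lower.

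Dividing the gate by Klk10 kept 16 of these 21 calls in the Klk10- cells and 9 in the Klk10+ cells, where fewer cells and genes could be tested. All 9 were genes higher in CerS4epi-/- mice. None of the lower genes was called in the Klk10+ cells, where Ano7, Slc16a1, Car11 and Slc1a3 could not be tested. The share kept among all called genes was not counted, so these counts are a description. Car12 was higher in both parts (2.55 ± 0.22 and 1.89 ± 0.45), as were Clic4 (2.08 ± 0.21 and 2.28 ± 0.25), Atp1b1 (1.16 ± 0.14 and 1.57 ± 0.34) and Slc12a2 (1.15 ± 0.11 and 1.29 ± 0.21). Slc26a9 had a log2 fold change of 0.37 ± 0.22 in Klk10- and 2.73 ± 0.41 in Klk10+ cells, and Aqp9 of 0.49 ± 0.16 and 2.21 ± 0.28. The difference between the 2 parts was not tested.

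In Krt79+ Cst6- cells 49 of the 121 genes were tested, and 7 were higher in CerS4epi-/- mice (14.3%, against 1.81% of 8403 genes) and 1 lower (2.04%, against 1.51%) by edgeR. The median mitochondrial share was 8.21% and 7.38% against 10.43% and 9.91%. Over the 49 genes the median log2 fold change was 0.07, and over all genes 0. These shares too are a description, from lists drawn up with earlier results known. Car12 was again higher, from 15.2 and 13.7 to 103 and 67.6 CPM (2.59 ± 0.30), and Car13 lower (-0.81 ± 0.17). Slc6a6 (1.45 ± 0.27), Kcnk2 (1.43 ± 0.39), Clic4 (0.93 ± 0.17), Aqp3 (0.80 ± 0.16) and Slc12a2 (0.58 ± 0.13) were also higher. Of the members, Ano1, Best2, Slc5a8 and Kcnj16 passed the low-count filter in these cells.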

How the data were processed

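Epidermal cells of 4 mice were profiled by BD Rhapsody. Per the study's methods the authors trimmed reads with fastp 0.23.2 and deposited estimated counts (UMIs with multi-mapped reads shared by expectation maximisation) per gene and barcode from STARsolo (STAR 2.7.10a, GRCm39). The strand setting was not given in the sources used here. Cells were barcodes from 1200 counts upward with no more than 20% from mitochondrial genes, and doublets were not removed. Cells were gated by marker UMIs in a fixed order, from immune and sebaceous to Krt75+, Krt79+, granular, Cst6+ Krt79-, Lhx2+, spinous and basal cells. Counts were summed per gate and mouse, rounded and tested with edgeR 4.0.16 (TMM, filterByExpr, quasi-likelihood test), with the mouse as a block between gates. Gates under 20 cells in any mouse were not tested. No further normalization was applied to CPM, whereas log2 differences were TMM-scaled. In a simulation of the genotype comparison in Krt79+ Cst6+ cells over 10773 genes, 98% of genes raised by 2 on the log2 scale, 66% of those raised by 1, 78% of those with a change of -2 and 48% of those with -1 were recovered, with 8 false calls (5.23% of calls). The members and lists were chosen with earlier results of these data known. Named transport genes are at most 4 per list and comparison, by absolute log2 fold change, among those past the threshold; likeness names up to 3 genes per member. Some genes that these rules name are not reported here. DESeq2, other filters and gates, blocks and left-out mice were alternatives. P-values cover the spread between these mice.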

Additional observations from a re-analysis of the deposited data

Results flagged for a closer look

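Among gates with at least 20 cells in every mouse and members with at least 10 counts there that passed the low-count filter, the Klk10 parts left aside, 3 members differed between genotypes in opposite directions in 2 gates, with no overlap between the mice in either gate. These were chosen genes, groups held 2 mice, and the difference between gates was not tested. For each, the gates with the largest difference in either direction are given. How many of all genes would meet the same rule was not counted, so the number is not read as a trait of the members. For Slc5a8 the log2 difference was 2.28 in spinous cells and -0.96 in Krt79+ Cst6- cells, a gap of 3.24. Its spinous levels lay below that of free RNA, as did the Krt79+ Cst6- level of CerS4epi-/- replicate 1 (21.0 against 21.3 CPM). Free RNA gives no floor for a cell, since basal cells of the CerS4epi-/- mice held only 0.615 and 0.744 CPM. For Best2 it was 1.17 in spinous cells and -0.59 in Krt79+ Cst6+ cells, a gap of 1.76, and the spinous value rested on CerS4epi-/- replicate 2. For Slc6a14 it was 0.17 in granular cells and -0.37 in spinous cells, a gap of 0.54, and its spinous level lay below that of free RNA.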

How the results depend on the processing

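In Krt79+ Cst6+ cells the count of 21 transport genes called between genotypes was 9 in Klk10+ cells only, an alternative added after the data were seen, where 47 in place of 59 of the genes could be tested. In Krt79+ Cst6- cells the count of 8 fell to 3 by DESeq2's Wald test, 5 with at least 2000 counts per cell, 3 with at most 10% mitochondrial counts and 2 with the stricter gate. The first cause was not tested, and the last 3 alternatives left fewer cells. Leaving out each mouse gave 16 to 25, 6 to 8 and, for Krt79+ Cst6+ against spinous cells, 44 to 49 calls in place of 51. Same-numbered mice did not deviate together (r = -0.02, 0.09 and 0.07 in Krt79+ Cst6+, Krt79+ Cst6- and spinous cells), so the numbers do not pair them. With a replicate block the genotype counts were 21 and 10, and without the mouse block the comparison with spinous cells gave 46. Of 526 alternative values for 61 log2 differences of the members, 499 kept their sign, 96 moved by more than 1 SD and 42 moved by over 1.5-fold. The 36 to 56 Klk10+ cells of the controls limit what could be seen there.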
